A study of Mus musculus with 384 samples.

Results

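The CD28 family was followed through 4 genes, Cd28, Icos, Ctla4 and Btla, which were taken by name from a table of 23420 mouse genes. The cells were T cells from B16F10 tumours, a transplantable melanoma line of C57BL/6 mice, sequenced by Smart-seq2, a plate method that reads whole transcripts of each cell without molecular identifiers. There were 4 plates: CD4 cells of the source labelled IL27raKO, CD4 cells of the wild type source, CD8 cells of the IL27raKO source and CD8 cells of the wild type source. Each plate held 94 single-cell wells, 1 population library made from the same kind of cells and 1 well without a cell. All animals bore the same tumour and no further allele, agent or age is given in the labels. Plates were grouped by their titles, 2 of which say CD4, although the treatment label names CD8+ as the sole cell type.

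CD28 is the main co-stimulatory receptor of T cells and binds CD80 and CD86 on antigen-presenting cells. CTLA-4 binds the same ligands more tightly and restrains T cells, and it is carried at high levels by regulatory T cells, the lineage set by the transcription factor FOXP3. ICOS binds ICOS ligand and co-stimulates activated and regulatory T cells, while BTLA binds the receptor HVEM (gene Tnfrsf14) and is inhibitory. In tumours, CTLA-4 is the target of blocking antibodies.

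Cd28, Ctla4 and Icos lie together in the genome. On mm10, Cd28 spans chr1:60716800-60773359, Ctla4 chr1:60887000-60915832 and Icos chr1:60977927-61000320, all on the plus strand, so that the 3 genes fall within 283.521 kb. Between these GENCODE gene bounds, the gap is 113640 bp between Cd28 and Ctla4 and 62094 bp between Ctla4 and Icos. Btla stands apart at chr16:45224315-45257670, also on the plus strand. The main transcripts have 4, 4, 5 and 6 exons for Cd28, Ctla4, Icos and Btla in the order named.

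The sequences shown next are the part of exon 2 that codes for the proline-rich loop with which these receptors touch their ligands, read from the coding strand of the GENCODE transcripts. The capitals mark the 6 codons of the loop, which in Cd28 and Ctla4 carries the motif common to the receptors of CD80 and CD86.
Cd28 (chr1:60763263-60763304): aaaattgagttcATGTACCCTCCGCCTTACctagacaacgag
Ctla4 (chr1:60912701-60912742): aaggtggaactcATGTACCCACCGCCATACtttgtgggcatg
Icos (chr1:60993971-60994012): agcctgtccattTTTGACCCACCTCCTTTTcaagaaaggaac
Of the 18 capital bases, Cd28 and Ctla4 shared 16, while Icos shared 11 with Cd28 and 11 with Ctla4. Btla, whose ligand is of another family, held no such loop by the same search. The genes are otherwise distinct: the longest run of bases common to the annotated transcripts of any pair of members was 15. None of the stretches of 50 bases of a member's main transcript occurred in a transcript of another gene. The annotated genes that overlap the spans of Ctla4 (Rpl18-ps1) and Icos (Gm37039) on the same strand thus share no such stretch with the members' main transcripts.

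The values are FPKM, fragments scaled to transcript length and library size, so levels can be compared between genes. Detection means 1 FPKM or more, and wells in which 1000 or more genes reached it were used: 78 IL27raKO CD4, 74 wild type CD4, 77 IL27raKO CD8 and 72 wild type CD8 cells, out of 94 wells on each plate. Their median number of detected genes was 2091, 2047, 2243 and 2530.5 in the same order. The wells without a cell listed 6 to 26 genes and all 4 members at 0, and the population libraries held 9918 to 10848 genes. Cd4 was detected in 91.03% of IL27raKO and 89.2% of wild type cells on the CD4 plates, against 1.30% and 0% on the CD8 plates. Cd8a was detected in 0% and 2.70% of IL27raKO and wild type cells on the CD4 plates, against 81.8% and 84.7% on the CD8 plates. Cd8b1, the other CD8 marker, was detected in 23.1% and 25.7% of these CD4-plate cells, against 84.4% and 88.9% on the CD8 plates. Its level in the IL27raKO and wild type CD4 population libraries was 122.2 and 5.34 FPKM, against 2178 and 2177 FPKM in the CD8 libraries. The summed mean of both CD8 markers was 0.59 and 29.96 FPKM on the CD4 plates, against 1436 and 1728 FPKM on the CD8 plates. At least 1 of 4 measured T cell markers was detected in 97.2 to 98.7% of cells on every plate. Foxp3 was detected in 37 of 78 IL27raKO and 27 of 74 wild type CD4 cells, and in 2 of 77 and 0 of 72 CD8 cells, where 0 of 72 allows a share of up to 4.17% if 3 counts are taken as the limit (4.99% by the exact interval). Il27ra itself was detected in 47.4% of CD4 and 57.1% of CD8 cells labelled IL27raKO, against 36.5% and 51.4% of cells labelled wild type. In the population libraries it stood at 133.4 FPKM in CD4 and 92.9 FPKM in CD8 cells labelled IL27raKO, against 244.6 and 155.4 FPKM in those labelled wild type. The gene-level value therefore did not separate the labels cell by cell. The labels used here do not say which exons the allele lacks, so this value does not check them.

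Each member had its own distribution over the cell classes. Ctla4 stood out in Foxp3-positive CD4 cells, Icos in CD4 cells of both kinds, Cd28 was widespread and most often found in Foxp3-negative CD4 cells, and Btla was found in few cells of any class. Over all kept cells, Icos was detected in 64.8%, Cd28 in 64.1%, Ctla4 in 60.1% and Btla in 10.96%. Where a transcript was detected, the median level was highest for Ctla4 at 571 FPKM, then Icos at 408 FPKM, Cd28 at 214.15 FPKM and Btla at 181.1 FPKM. Values were close to all or none: at a threshold of 10 FPKM, the shares were 62.8% for Icos, 60.8% for Cd28, 58.1% for Ctla4 and 9.30% for Btla. Cells of 1 plate are not replicates, so the exact Clopper-Pearson 95% intervals given here cover counting error only. In amplified cDNA of single cells, a transcript listed at 0 may also have been missed.

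**Figure D1:**
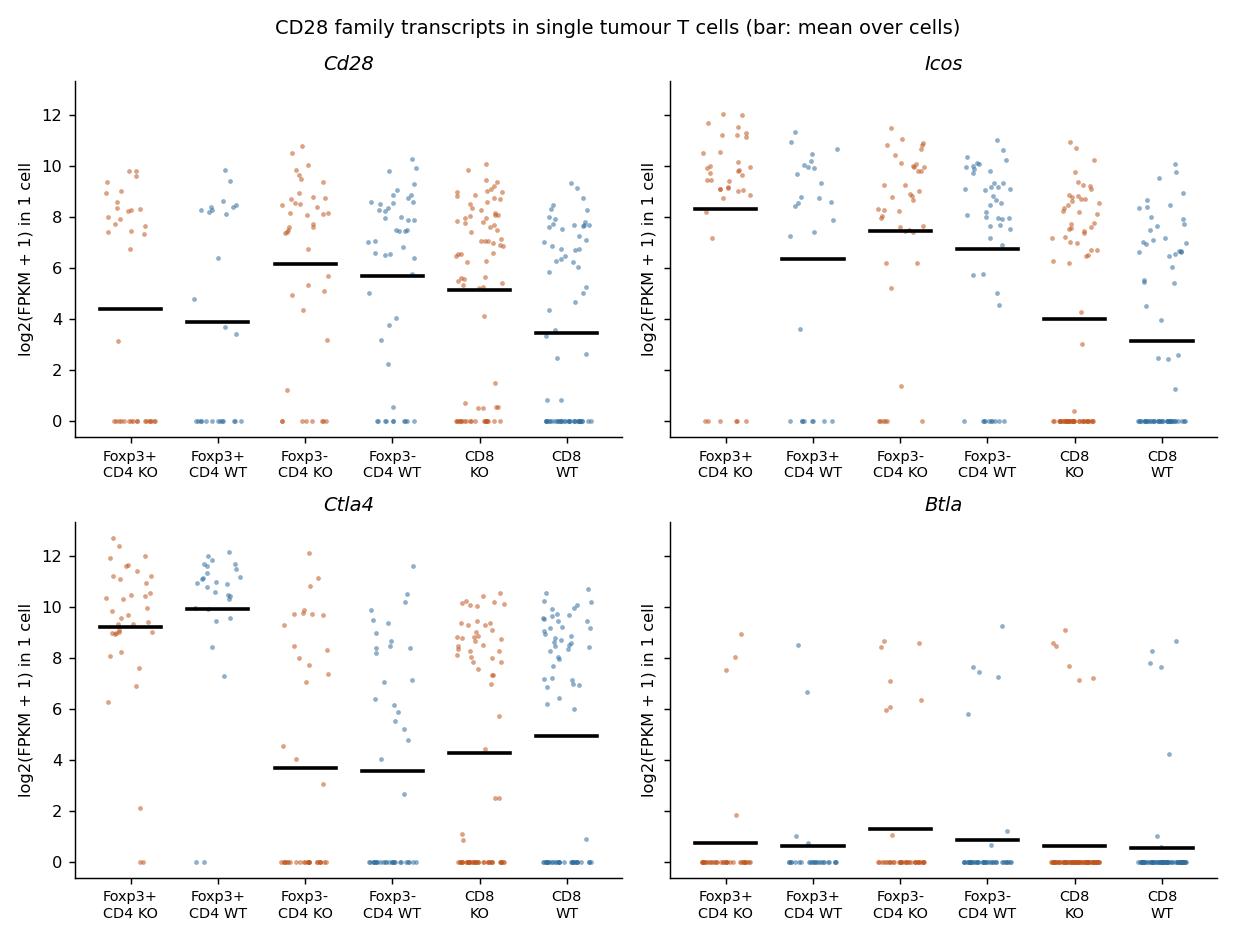
Level of each member in every kept cell as log2(FPKM + 1), 1 point per cell, with the mean over cells as a bar, for Foxp3-positive CD4, Foxp3-negative CD4 and CD8 cells of the knockout (KO, orange) and wild type (WT, blue) sources. Most cells sit either at 0 or well above it, and Ctla4 is below 1 FPKM in 2 of 37 and 2 of 27 Foxp3-positive cells.

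Cd28, the receptor that gives the basal co-stimulatory signal, was detected in 53 of 78 IL27raKO and 50 of 74 wild type CD4 cells, which is 67.9% (interval 56.4 to 78.1) and 67.6% (55.7 to 78). In CD8 cells it was detected in 68.8% (57.3 to 78.9) of IL27raKO and 51.4% (39.3 to 63.4) of wild type cells. The median over all cells was 171.9 FPKM in IL27raKO and 95.3 FPKM in wild type CD4 cells, against 93.4 and 4.87 FPKM in CD8 cells of the same sources. Of the 4 plates, Cd28 was least often found in wild type CD8 cells, but the intervals of all 4 overlap. The highest single cell reached 1769 FPKM, an IL27raKO Foxp3-negative CD4 cell.

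Icos, induced when T cells are activated, was detected in 84.6% (interval 74.7 to 91.8) of IL27raKO and 75.7% (64.3 to 84.9) of wild type CD4 cells, against 50.6% (39 to 62.2) and 47.2% (35.3 to 59.3) of CD8 cells. Among the cells that had it, the mean of log2(FPKM + 1) was 9.32 in IL27raKO and 8.73 in wild type CD4 cells, against 7.92 and 6.64 in CD8 cells. Both the share and the level in positive cells were thus higher on the CD4 plates, and the intervals of the shares on the 2 kinds of plate did not overlap. The highest cell was at 4235 FPKM, on the IL27raKO CD4 plate.

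Ctla4 was detected in 67.9% (interval 56.4 to 78.1) of IL27raKO and 63.5% (51.5 to 74.4) of wild type CD4 cells, against 51.9% (40.3 to 63.5) and 56.9% (44.7 to 68.6) of CD8 cells. These plate shares overlap, but they mix unlike cells. Among Foxp3-positive CD4 cells, Ctla4 was detected in 35 of 37 IL27raKO and 25 of 27 wild type cells, which is 94.6% (81.8 to 99.3) and 92.6% (75.7 to 99.1). Among Foxp3-negative CD4 cells it was detected in 18 of 41 and 22 of 47, which is 43.9% (28.5 to 60.3) and 46.8% (32.1 to 61.9). The order of the 6 classes by share was Foxp3-positive IL27raKO, Foxp3-positive wild type, wild type CD8, IL27raKO CD8, Foxp3-negative wild type and Foxp3-negative IL27raKO. The gap between the 2 Foxp3-positive classes and the other 4 exceeded the intervals, and no step within either set did.

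Btla was detected in 12 of 78 IL27raKO and 9 of 74 wild type CD4 cells, which is 15.4% (interval 8.21 to 25.3) and 12.2% (5.71 to 21.8). In CD8 cells it was detected in 6 of 77 IL27raKO and 6 of 72 wild type cells, which is 7.79% (2.91 to 16.2) and 8.33% (3.12 to 17.3). These intervals overlap throughout, and a difference between plates was not detectable with this number of positive cells. The few positive cells were not all marginal, since their median was 157.9 and 152.15 FPKM in IL27raKO and wild type CD4 cells, against 277.1 and 208.6 FPKM in CD8 cells.

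**Figure D2:**
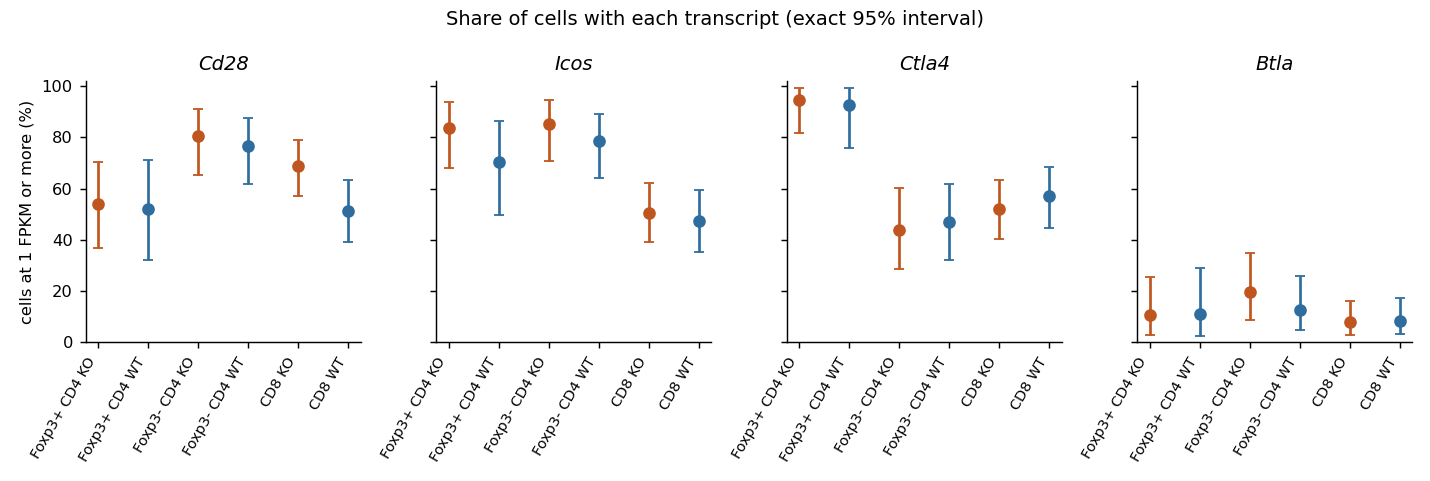
Share of kept cells with each member at 1 FPKM or more, in percent, with the exact 95% interval for counting error, for the same 6 classes (KO, orange; WT, blue). Ctla4 separates the Foxp3-positive classes (94.6% and 92.6%) from all others, Icos has higher point estimates in all 4 CD4 classes than in CD8 cells, with overlapping intervals for wild type Foxp3-positive cells, and Btla is at or below 19.5% in every class.

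The contrast of CD4 with CD8 cells asked which members mark the helper and regulatory compartment of the tumour. Icos was higher in CD4 cells in both sources and passed the test, whereas Ctla4, Cd28 and Btla did not. The mean of log2(FPKM + 1) for Icos was 7.89 in IL27raKO and 6.61 in wild type CD4 cells, against 4.02 and 3.13 in CD8 cells, and neither CD4 plate overlapped a CD8 plate. The CD4 minus CD8 difference was 3.67 ± 0.58 (SE, 4 plates, limma with source as a block), adjusted p = 1.14e-07. As arithmetic means of FPKM, Icos was 4.45-fold higher in CD4 cells of the IL27raKO source and 5.03-fold higher in CD4 cells of the wild type source. Of 8427 genes tested, 1.12% were called higher and 6.32% lower in CD4 cells, and the median difference of all genes was -0.27.

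The other members differed less between CD4 and CD8 cells. Mean log2(FPKM + 1) of Ctla4 was 6.30 and 5.87 in IL27raKO and wild type CD4 cells, against 4.25 and 4.94 in CD8 cells. The difference of 1.49 missed the threshold in the limma test (adjusted p = 0.0899). Cd28 averaged 5.32 and 5.02 in IL27raKO and wild type CD4 cells, against 5.13 and 3.45 in CD8 cells, a difference of 0.88 (limma adjusted p = 0.357) that was 0.19 in the IL27raKO source and 1.57 in the wild type source. Btla averaged 1.01 and 0.76 in CD4 cells and 0.63 and 0.53 in CD8 cells of the same sources, a difference of 0.31 (limma adjusted p = 0.525). A p above the threshold does not show that these 3 genes were alike in the 2 kinds of cell. The fit leaves 1 residual degree of freedom, so its error comes almost wholly from the spread over all genes. The Icos call was lost without the IL27raKO CD4 plate (difference 3.03, adjusted p = 0.175) and when only cells with 2000 or more genes were used (4.23, adjusted p = 0.0803) or cells with markers of other types were left out (3.23, adjusted p = 0.208), while the difference stayed positive in all 3. Tyr, 1 of these markers, was detected in 97.4 to 100% of cells by plate. With Tyr and Cd8b1 left out of that marker count, the Icos difference was 3.896 (limma adjusted p = 5.12e-06). The summed mean level of 3 natural killer cell markers was 37.1 and 55.8 FPKM in IL27raKO and wild type CD4 cells, against 369.5 and 425 FPKM in CD8 cells, with Ncr1 at 0 on all 4 plates, and its part in the result was not tested.

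The population libraries repeated the Icos difference and also gave calls for Ctla4 and Cd28. Icos stood at 1174 FPKM in IL27raKO and 1056 FPKM in wild type CD4 libraries, against 415 and 136.4 FPKM in CD8 libraries. Ctla4 stood at 2069 and 1843 FPKM in the CD4 libraries, against 523 and 441 FPKM in the CD8 libraries, which is 3.96-fold higher in the IL27raKO source and 4.18-fold higher in the wild type source. Cd28 stood at 495 and 537 FPKM in the CD4 libraries, against 216.95 and 163.7 FPKM in the CD8 libraries. For these 3 members both CD4 libraries were above both CD8 libraries. The CD4 minus CD8 differences in log2(FPKM + 1) were 2.22 for Icos (limma adjusted p = 3.76e-08), 2.02 for Ctla4 (limma adjusted p = 9.14e-08) and 1.45 for Cd28 (limma adjusted p = 0.00484). Of 12603 genes tested in these libraries, 1.6% were called higher and 3.33% lower, and the median difference was -0.12. Btla went opposite ways, with 64.6 FPKM in the CD4 against 96.5 FPKM in the CD8 library of the IL27raKO source, and 56.2 against 11.6 FPKM in the wild type source (difference 0.80, limma adjusted p = 0.679). The fit to these libraries also leaves 1 residual degree of freedom, so its p-values rest on the spread over all genes. In such libraries more cells with a transcript and more RNA per cell cannot be told apart.

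Because CD4 plates mix Foxp3-positive and Foxp3-negative cells, the contrast was also run with Foxp3-negative CD4 cells alone, a choice made after seeing the data. Icos kept its difference at 3.54 (limma adjusted p = 0.00222), with 0.167% of 8408 genes called higher and 2.94% lower. Ctla4 was then lower in CD4 than in CD8 cells by point estimate, at -0.98 (limma adjusted p = 0.366), with -0.58 in the IL27raKO and -1.38 in the wild type source. Cd28 was at 1.64 (limma adjusted p = 0.138) and Btla at 0.48 (limma adjusted p = 0.376).

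**Figure D3:**
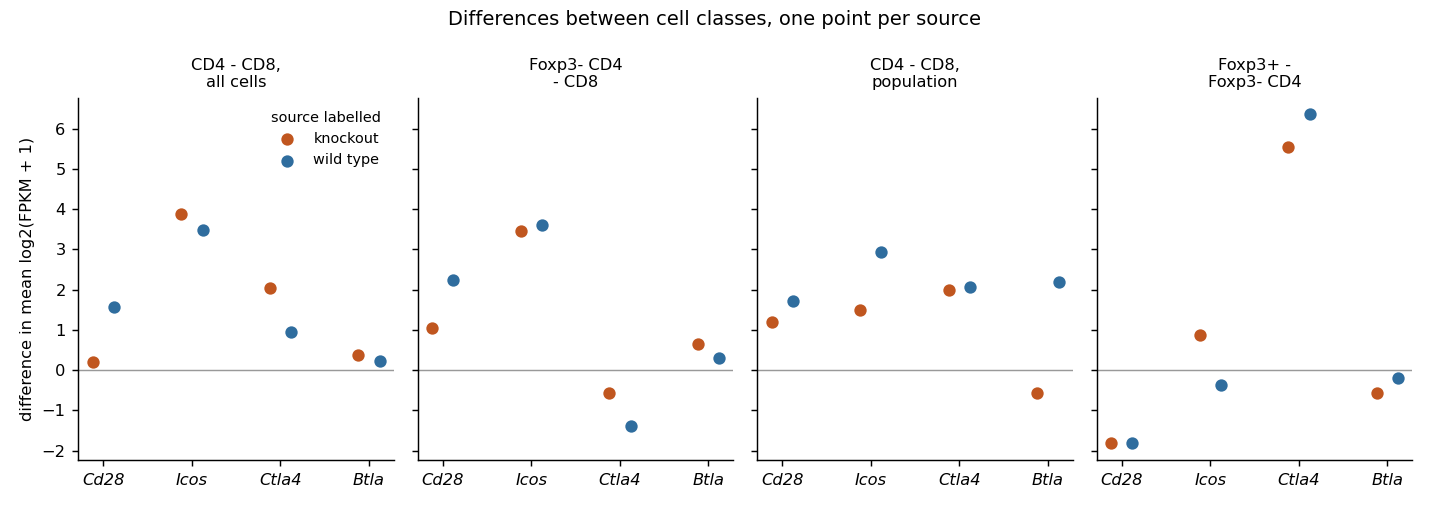
Differences in mean log2(FPKM + 1) for each member within the source labelled knockout (orange) and the source labelled wild type (blue): CD4 minus CD8 cells, Foxp3-negative CD4 minus CD8 cells, CD4 minus CD8 population libraries, and Foxp3-positive minus Foxp3-negative CD4 cells. Icos lies between 3.46 and 3.87 in both single-cell CD4 minus CD8 panels, and Ctla4 at 5.53 and 6.35 between the Foxp3 classes.

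Genes of the partner lists were called in both directions between CD4 and CD8 cells, to be read beside the 1.12% of all genes called higher and 6.32% called lower. Of 8 measured ligands and partner receptors, Cd5 (2.02), a brake on antigen receptor signalling, and Cd274 (1.56), which encodes PD-L1, were called higher, and Pdcd1 (-2.48), which encodes PD-1, and Cd160 (-1.44), another HVEM receptor, were called lower. Of 18 measured proximal signalling genes, none was called higher and the PI3 kinase subunit Pik3cd (-1.81) was called lower, which is near the share of all genes called lower, with a list median of -0.34 beside -0.27 for all genes. Of 11 inhibitory signalling and CTLA-4 traffic genes, the phosphatase gene Ptpn6 (-2.59) and the adaptor gene Ap1m1 (-1.74) were called lower and none higher, and Trat1, whose product TRIM helps bring CTLA-4 to the surface, was at 0.75. Of 9 regulatory T cell genes, 5 were called higher, led by Foxp3 (3.81) and Tnfrsf4 (3.51), with a list median of 1.73. Of 4 measured follicular helper genes, Cd40lg (2.34) and Maf (2.18) were called higher and Sh2d1a (-2.06) lower. Of 7 naive and memory genes, Il7r (1.66) was called higher and none lower. All of these calls are from limma with adjustment over 8427 genes.

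Within CD4 cells, Foxp3 detection was used to ask which members follow the regulatory lineage. Ctla4 was higher in Foxp3-positive than in Foxp3-negative cells on both plates, and Icos, Cd28 and Btla did not pass the test. Over all cells of a class, Ctla4 had a median of 823 FPKM (0 to 6730) in Foxp3-positive IL27raKO cells and 1924 FPKM (0 to 4627) in Foxp3-positive wild type cells, against medians of 0 in Foxp3-negative cells, whose highest values were 4404 FPKM in IL27raKO and 3152 FPKM in wild type cells. The means of log2(FPKM + 1) were 9.21 and 9.90 in Foxp3-positive IL27raKO and wild type cells, against 3.68 and 3.55 in Foxp3-negative cells, and the class means did not overlap. The difference was 5.94 ± 0.66 (SE, 2 plates, limma with plate as a block), adjusted p = 6.86e-16. This fit too leaves 1 residual degree of freedom, so the p rests on the spread over all genes and not on that of Ctla4 between the plates. Of 8278 genes tested, 2.46% were called higher and 0.519% lower in Foxp3-positive cells, with a median difference of 0.17.

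The Ctla4 difference had a part in the share and a part in the level. Among cells with Ctla4, the median was 925 and 1961 FPKM in Foxp3-positive IL27raKO and wild type cells, against 495 and 312.1 FPKM in Foxp3-negative cells. Arithmetic mean FPKM was 4.07-fold higher in Foxp3-positive cells of the IL27raKO plate and 8.21-fold higher in those of the wild type plate. On the log2 scale of arithmetic means the difference was 2.53 and was not called (limma adjusted p = 0.315), and leaving out the Foxp3-positive cells of the IL27raKO plate (6.29, limma adjusted p = 0.110) or of the wild type plate (5.60, limma adjusted p = 0.133) also ended the call. At least 1 of 11 myeloid and dendritic markers was detected in 56.8% of IL27raKO and 66.7% of wild type Foxp3-positive cells, against 21.95% and 19.1% of Foxp3-negative cells. Their summed mean level ran the other way, at 125.8 and 2830 FPKM in Foxp3-positive cells and 2082 and 3754 FPKM in Foxp3-negative cells, with C1qa and C1qb at 0 in both classes of the IL27raKO plate. Their part in the result was not tested. Without cells that carried 2 or more markers of other cell types, with Tyr and Cd8b1 left out of the count (a choice made after seeing the data), the difference was 5.32 (limma adjusted p = 0.0885), and with both counted it was 5.56 (limma adjusted p = 0.189).

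Cd28 was found less often in Foxp3-positive cells on both plates by point estimate, the opposite of Ctla4. It was detected in 20 of 37 IL27raKO and 14 of 27 wild type Foxp3-positive cells, which is 54.1% (interval 36.9 to 70.5) and 51.9% (31.9 to 71.3). In Foxp3-negative cells it was detected in 33 of 41 and 36 of 47, which is 80.5% (65.1 to 91.2) and 76.6% (61.97 to 87.7). The difference in mean log2(FPKM + 1) was -1.80 on the IL27raKO and -1.82 on the wild type plate, and the fitted -1.81 did not pass (limma adjusted p = 0.154). It was -0.21 without the filter on detected genes per cell, -1.07 in cells with 2000 or more genes and -2.73 in cells with 1500 to 3000 genes (limma adjusted p = 0.0800 to 0.839). Among cells with Cd28 the median was 309.7 and 310.6 FPKM in Foxp3-positive IL27raKO and wild type cells, against 285.8 and 238.2 FPKM in Foxp3-negative cells, so the gap lay in the share of cells and not in a lower level. In the wild type Foxp3-positive class the share also moved with depth, at 76.9% in the 13 cells above the median number of genes and 28.6% in the other 14, and at 66.7% of 18 against 42.1% of 19 cells in the IL27raKO Foxp3-positive class.

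Icos was not called between the Foxp3 classes, and its direction differed between the plates. It was detected in 83.8% and 70.4% of Foxp3-positive IL27raKO and wild type cells, against 85.4% and 78.7% of Foxp3-negative cells, and the difference was 0.24 (limma adjusted p = 0.928), with 0.86 on the IL27raKO and -0.38 on the wild type plate. Among cells with Icos, the median was 907 and 652 FPKM in Foxp3-positive cells, against 480 and 460 FPKM in Foxp3-negative IL27raKO and wild type cells. Btla was detected in 4 of 37 and 3 of 27 Foxp3-positive cells, against 8 of 41 and 6 of 47 Foxp3-negative cells of the IL27raKO and wild type plates, a difference of -0.38 (limma adjusted p = 0.720). Without the filter on detected genes per cell, Icos was called higher in Foxp3-positive cells (2.06, limma adjusted p = 0.00373). In that setting 1396 of 8052 genes were called higher and 29 lower, with a median difference of 0.44. The main fit called 2.46% of genes higher. The setting lets in wells with under 1000 detected genes, and their part in the Icos call was not tested.

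Other regulatory T cell genes were called with Ctla4, while few signalling genes were, where 2.46% of all genes were called higher and 0.519% lower. Of 9 regulatory T cell genes, 8 were called higher in Foxp3-positive cells, among them Tnfrsf4 (7.09), which encodes the co-stimulatory receptor OX40, and Foxp3 itself, which defined the classes, and Nrp1 was at -0.07. The list median was 4.10, beside 0.17 for all genes. Of 9 ligands and partner receptors, Pdcd1lg2 (1.73), which encodes a PD-1 ligand, was called higher and none lower. Of 18 proximal signalling genes, the survival gene Bcl2l1 (1.80) was called higher and none lower, and none of 11 inhibitory signalling and CTLA-4 traffic genes was called either way, counts too small to set apart from those shares. Of 4 follicular helper genes, Maf (2.00) was called higher and Cd40lg (-4.10), the helper ligand of B cells, lower. Of the naive and memory genes, Tcf7 (-2.99) and S1pr1 (-2.75), which encodes a receptor for exit from tissue, were called lower. All are limma calls with adjustment over 8278 genes.

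The promoter of Ctla4 is shown because this gene differed most among the members by Foxp3. RefSeq tables matched 2 of the 4 members, Ctla4 and Btla, and gave 250 bases before and 50 after the annotated start. On GRCm38.p6 the Ctla4 window is chr1:60908775-60909074, plus strand. It lies inside the GENCODE span of Ctla4 given above, since the RefSeq start used is not the first base of that span. The matches found are in capitals.
Ctla4: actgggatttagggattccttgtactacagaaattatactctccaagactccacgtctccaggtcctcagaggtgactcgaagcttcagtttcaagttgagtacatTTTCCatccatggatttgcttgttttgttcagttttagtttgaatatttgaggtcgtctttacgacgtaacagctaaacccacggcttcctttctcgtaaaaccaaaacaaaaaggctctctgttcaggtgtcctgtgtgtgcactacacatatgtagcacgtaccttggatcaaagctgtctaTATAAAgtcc
The letters searched on both strands were TATAAA (a core promoter box), GGAAA (core of NFAT sites), TGTTTAC (forkhead), TGANTCA (AP-1) and TGACGT (CRE half-site). Ctla4 held TATAAA once, shortly after the annotated start, and GGAAA once, on the minus strand and before the start, and the matches did not overlap. These letters occurred in 13.6% and 61.3% of 32851 promoter windows of the same length, so the second match is common. The forkhead, AP-1 and CRE letters were not in the Ctla4 window, and none of the 5 was in the Btla window.

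Cells with several members were common, as were cells with each of Cd28, Icos and Ctla4. By plate, each of these 3 was detected in 63.5 to 84.6% of CD4 cells and 47.2 to 68.8% of CD8 cells. Cells with Cd28, Icos and Ctla4 together made up 38.5% (interval 27.7 to 50.2) of IL27raKO and 36.5% (25.6 to 48.5) of wild type CD4 cells, against 28.6% (18.8 to 40) and 25% (15.5 to 36.6) of CD8 cells. The share that unlinked genes would give was not set beside these values, so they do not show that the members go together. Cells with none of the 4 members were rare on the CD4 plates, at 1 of 78 IL27raKO and 4 of 74 wild type cells, against 10 of 77 and 16 of 72 CD8 cells. Every Foxp3-positive cell had at least 1 member, and 0 of 37 and 0 of 27 allow shares of up to 8.11% and 11.1% without any, with 3 counts as the limit. All 4 members were found together in 12 of the kept cells.

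Ctla4 outside the Foxp3-positive class was found mainly in cells that also had Icos. Among Foxp3-negative CD4 cells, 17 of the 18 Ctla4-positive IL27raKO cells and 21 of the 22 Ctla4-positive wild type cells had Icos. These counts are to be read beside Icos in 85.4% of all IL27raKO and 78.7% of all wild type Foxp3-negative CD4 cells. Read the other way, Ctla4 was detected in 48.6% (interval 31.4 to 66.01) of the 35 IL27raKO and 56.8% (39.5 to 72.9) of the 37 wild type cells with Icos, against 1 of 6 and 1 of 10 cells without it. The classes without Icos were small and their intervals wide, reaching 64.1% in IL27raKO and 44.5% in wild type cells. In CD8 cells, Ctla4 was detected in 69.2% (52.4 to 82.98) of IL27raKO and 79.4% (62.1 to 91.3) of wild type cells with Icos, against 34.2% (19.6 to 51.4) and 36.8% (21.8 to 54.01) of cells without it. The intervals of cells with and without Icos did not overlap on either CD8 plate. On the wild type CD8 plate both genes moved with depth. Above the median number of genes Icos was detected in 63.9% and Ctla4 in 83.3% of cells, and each in 30.6% of the others. On the IL27raKO CD8 plate these shares were 47.4% and 55.3%, against 53.8% and 48.7%. The part of depth was not tested. In Foxp3-positive cells Ctla4 was nearly always present and no such contrast could be seen.

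In CD8 cells Ctla4 was found together with Pdcd1, the gene of the PD-1 receptor, which marks antigen-experienced and exhausted T cells. Ctla4 was detected in 21 of 25 IL27raKO and 39 of 45 wild type cells with Pdcd1, which is 84% (interval 63.9 to 95.5) and 86.7% (73.2 to 94.9). Without Pdcd1 it was detected in 36.5% (23.6 to 51.04) of 52 IL27raKO and 7.41% (0.91 to 24.3) of 27 wild type cells. On both plates the intervals were apart, and cells without Pdcd1 had Ctla4 more often on the IL27raKO plate, where the intervals of the 2 plates only just overlap. Depth moved with Ctla4 on the wild type plate, where it was detected in 83.3% of the 36 cells above the median number of genes and 30.6% of the other 36. On the IL27raKO CD8 plate these shares were 55.3% and 48.7%. The part of depth in the co-detection was not tested. Among Foxp3-negative CD4 cells, Ctla4 was detected in 7 of 14 IL27raKO and 12 of 15 wild type cells with Pdcd1, against 11 of 27 and 10 of 32 cells without it.

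**Figure D4:**
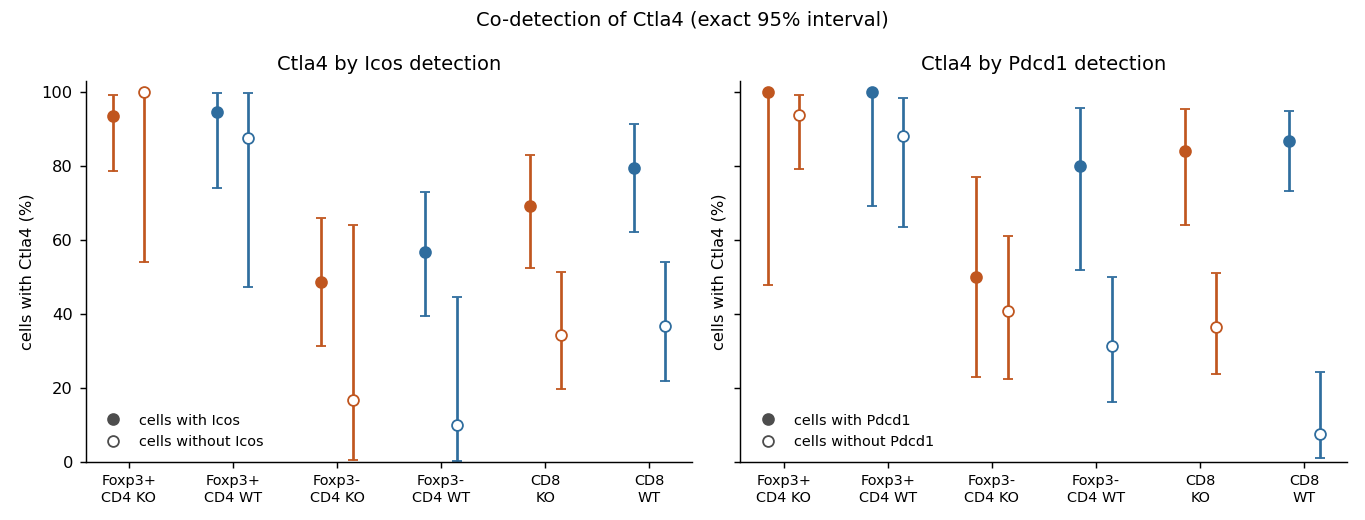
Share of cells with Ctla4, in percent with exact 95% intervals, among cells with (filled) and without (open) Icos on the left and Pdcd1 on the right, by class (KO, orange; WT, blue). The widest gap is in wild type CD8 cells by Pdcd1, 86.7% against 7.41%, and Foxp3-positive cells are near the top in every case.

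Cd28 and Ctla4 were found together more often than apart in CD8 cells by point estimate. Ctla4 was detected in 62.3% (interval 47.9 to 75.2) of IL27raKO and 72.97% (55.9 to 86.2) of wild type CD8 cells with Cd28, against 29.2% (12.6 to 51.1) and 40% (23.9 to 57.9) of those without it, with intervals that overlap at their ends. In CD4 cells Ctla4 was detected in 60.4% and 62% of cells with Cd28, against 84% and 66.7% of those without it, in the IL27raKO and wild type plates. These plate values mix Foxp3 classes. Foxp3-positive cells had Ctla4 more often and Cd28 less often by point estimate than Foxp3-negative cells on both plates. The part of this mix was not tested. Within Foxp3-positive cells, Cd28 was found in 18 of 35 IL27raKO and 13 of 25 wild type cells that had Ctla4. Among all Foxp3-positive cells of these plates its share was 54.1% and 51.9%. Btla showed no clear partner with so few positive cells, since Icos was found in 10 of 12 and 7 of 9 of the Btla-positive IL27raKO and wild type CD4 cells, at shares close to those of all cells on these plates.

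Levels over single cells were used to find the genes most like each member. Correlations of log2(FPKM + 1) were taken within each plate after the effect of cell depth was removed, and averaged over the 4 plates for 5263 candidate genes (5264 for Btla). Ctla4 was most like Tigit (mean r 0.36), Fgl2 (0.34), Pdcd1 (0.33), Dusp1 (0.32) and Gzmb (0.32). The value for Pdcd1 ran from -0.12 to 0.71 over the plates, so it was not shared by all of them. Tigit ran from 0.04 to 0.59 and Gzmb from 0.08 to 0.47, also near 0 at the low end. Fgl2 ran from 0.15 to 0.56 and Dusp1 from 0.23 to 0.50. Icos was most like Lgals1 (0.33), Dgat1 (0.32), S100a6 (0.32), Ndfip1 (0.32) and Ctla4 (0.30), and for Ctla4 the plates ran from 0.20 to 0.41. Cd28 was most like Tpst2, Cnn2, Gnb2l1 and Slc28a2 (0.25 each, rounded) and Tssc1 (0.24), with Icos at rank 14 (0.21). For Btla no gene passed 0.25. Cells of a plate share a source and a library preparation, and correlations this weak in sparse values are given as a description only.

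The genotype contrast asked whether the members depend on the IL-27 receptor, a cytokine receptor chain whose ligand induces inhibitory receptors on T cells. It had 1 source per label, so genotype, animal and plate cannot be told apart, and differences are given without a test. A difference of 1 or more on the log2 scale was taken as the size to count. The Il27ra transcript did not separate the labels, so directions here are those of cells labelled IL27raKO minus cells labelled wild type.

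In CD8 cells labelled IL27raKO, Cd28 was higher by 1.68 on the scale of mean log2(FPKM + 1), at 5.13 against 3.45 in cells labelled wild type. This was the sole member past 1, among 2.07% of 8117 genes that were higher and 9.19% that were lower by as much, with a median of -0.22 over all genes. Among cells with Cd28, the median was 208.3 FPKM in cells labelled IL27raKO and 129.3 FPKM in cells labelled wild type. Icos differed by 0.88, Btla by 0.10 and Ctla4 by -0.68, and Btla was below the filter of detection in 10% of cells. In the population libraries Cd28 stood at 216.95 FPKM in IL27raKO against 163.7 FPKM in wild type CD8 cells, a difference of 0.40. Without cells that carried markers of other cell types or lineages, which removed 51 of 77 IL27raKO and 51 of 72 wild type CD8 cells, the Cd28 difference was 0.18, and with Tyr and Cd8b1 left out of the marker count it was 1.57.

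The same CD8 plates differed in naive and memory genes and in Pdcd1. Of 7 naive and memory genes, 5 were higher by 1 or more in CD8 cells labelled IL27raKO, among them Il7r (4.04) and Tcf7 (2.89), with a list median of 1.68. Of 8 measured ligands and partner receptors, Pdcd1 was lower (-3.63) and none was higher, and none of 18 proximal signalling genes reached 1 either way. Tcf7, a transcription factor of naive and stem-like T cells, was detected in 47 of 77 cells labelled IL27raKO and 19 of 72 labelled wild type. Split by Tcf7, which was chosen after its values were seen, Cd28 was detected in 70.2% of Tcf7-positive and 66.7% of Tcf7-negative cells labelled IL27raKO, and in 47.4% and 52.8% of those labelled wild type. Within either Tcf7 class the cells labelled IL27raKO thus had Cd28 more often by point estimate, with intervals that overlap (55.1 to 82.7 against 24.4 to 71.1 for Tcf7-positive and 47.2 to 82.7 against 38.6 to 66.7 for Tcf7-negative cells). Ctla4 was detected in 53.2% of Tcf7-positive and 50% of Tcf7-negative cells labelled IL27raKO, against 31.6% and 66.04% of those labelled wild type.

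In CD4 cells labelled IL27raKO, Icos was higher by 1.28, at 7.89 against 6.61 in cells labelled wild type, among 2.53% of 7063 genes higher and 2.51% lower by 1 or more. Ctla4 differed by 0.43, Cd28 by 0.30 and Btla by 0.25, with a median of -0.04 over all genes. By Foxp3 class, Icos differed by 1.97 in Foxp3-positive cells, among 4.37% of 7778 genes higher and 11.4% lower, and by 0.73 in Foxp3-negative cells, where 5.44% of 6787 genes were higher and 4.91% lower. Foxp3-positive cells labelled IL27raKO had a median of 711 FPKM of Icos, against 372.7 FPKM in those labelled wild type. The Icos difference fell under 1 in arithmetic means (0.80) and was 0.15 in the population libraries, at 1174 FPKM in IL27raKO against 1056 FPKM in wild type cells. Foxp3-positive cells made up 47.4% of CD4 cells labelled IL27raKO and 36.5% of those labelled wild type, and 6 of 9 regulatory T cell genes were higher by 1 or more in the whole plate, with a list median of 1.28. The part of this share in the plate difference of Icos was not tested.

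Ctla4 differed in opposite directions between the Foxp3 classes by point estimate, with neither difference reaching 1 and the one in Foxp3-negative cells small. Foxp3-positive cells labelled IL27raKO had a mean of 9.21 against 9.90 in those labelled wild type, a difference of -0.69, while Foxp3-negative cells stood at 3.68 against 3.55, a difference of 0.12. Cd28 and Btla stayed within 0.51 of 0 in both Foxp3 classes. The shares of cells with Ctla4 differed by 2.00 percentage points in Foxp3-positive and -2.91 in Foxp3-negative cells, both within the counting intervals of these shares. Among Foxp3-positive cells with Ctla4 the median level was 925 FPKM in those labelled IL27raKO against 1961 FPKM in those labelled wild type.

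Btla gave the widest gap in the population libraries, with no counterpart in the cells. It stood at 96.5 FPKM in the CD8 library labelled IL27raKO against 11.6 FPKM in the one labelled wild type, which is 8.31-fold higher, on a background where 18.6% of 11761 genes were higher and 14.9% lower by 1 log2 or more. Icos in the same pair differed by 1.60, at 415 against 136.4 FPKM. In the CD4 libraries no member reached 1, on a background of 22.6% of 11344 genes higher and 20.8% lower. In single CD8 cells Btla was detected in 7.79% of IL27raKO and 8.33% of wild type cells, and mean FPKM was 22.99 and 15.9. Among 6 B cell markers, whose cells also carry BTLA, the summed level was 61.8 FPKM in the IL27raKO CD8 library against 11.2 FPKM in the wild type one, with Cd79a and Pax5 at 0 in both. The dendritic cell receptor gene Flt3 stood at 32.8 FPKM in the IL27raKO library against 0.45 FPKM in the wild type one, a gene picked from its values, while the sum of the 11 myeloid and dendritic markers ran the other way, at 2139 against 2901 FPKM. Their part in the Btla value was not tested, and each library is 1 sample.

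Markers of tumour and myeloid cells also differed between the labels. The summed mean level of 6 melanoma markers was 20.2 FPKM in CD4 and 27.4 FPKM in CD8 cells labelled IL27raKO, against 62.4 and 456 FPKM in those labelled wild type, and Dct and Tyrp1 were at 0 on the IL27raKO CD4 plate. The summed level of 11 myeloid and dendritic markers was 1154 and 610 FPKM in IL27raKO CD4 and CD8 cells, against 3417 and 1614 FPKM in wild type cells. At least 1 of these 11 was detected in 38.5% and 27.3% of IL27raKO CD4 and CD8 cells, against 36.5% and 37.5% of wild type cells, and in the CD4 population libraries the sum was 1022 FPKM in the IL27raKO against 311.9 FPKM in the wild type one. Their part in the genotype differences of the members was not tested.

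**Figure D5:**
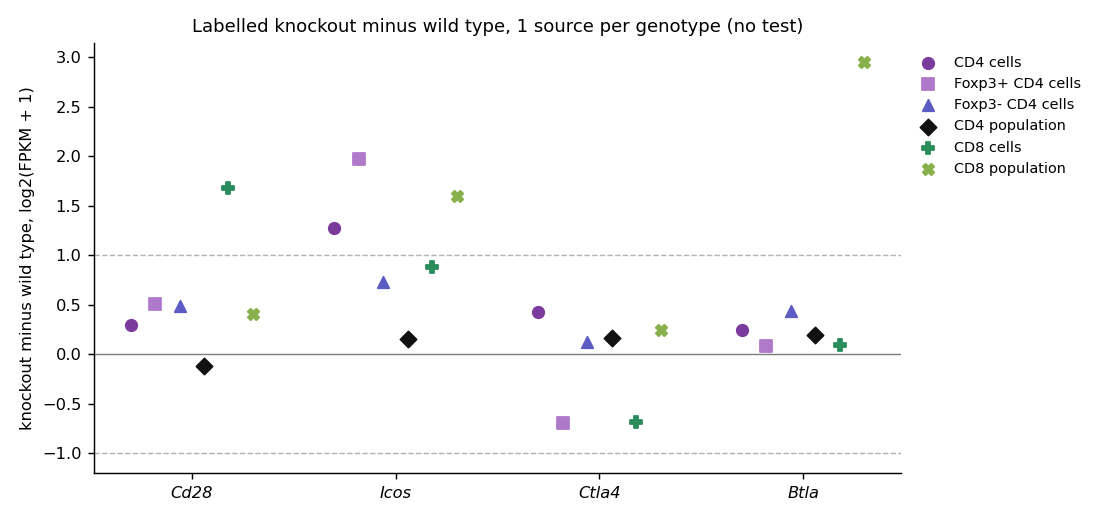
Labelled knockout minus labelled wild type for each member in mean log2(FPKM + 1), for CD4 cells, their Foxp3 classes, the CD4 population library, CD8 cells and the CD8 population library, with dashed lines at 1 and -1. Icos is above 0 throughout, Cd28 exceeds 1 in CD8 cells (1.68), and Btla exceeds 1 in the CD8 population library alone (2.95).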

How the data were processed

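The deposited table holds FPKM values with TMM normalization made by the authors for 23420 genes in 384 wells on 4 plates; per the submitters' processing notes, Bowtie, RSEM and the mm10 build were used; their versions are not stated there. RSEM shares out reads that fit several genes. Low values were whole multiples of 1 estimated read (within 0.1) in 46.7% of cases, against 20% if spread evenly, so they were not treated as counts and depth is given as detected genes. The members and gene lists were chosen with earlier results of these data known. All 4 members are named throughout, of each list at most the 2 highest and 2 lowest differences, and the 5 genes most like each member.

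Per plate or class, the mean over cells of log2(FPKM + 1) was taken for genes detected in 10% of the cells of a plate or class. CD4 minus CD8 was fitted with limma 3.58.1 (R 4.3.3; lmFit, eBayes with trend) on 4 plate means with source as a block, Foxp3 classes on 4 class means with plate as a block, and population libraries likewise, with Benjamini-Hochberg adjustment over all genes tested and a threshold of 0.05. The block rests on the titles, which give WT4 or KO4 for 1 CD4 and 1 CD8 plate each and were read as 1 source per genotype, an assumption. Nothing in the labels says how many animals a source held, so p-values do not cover a spread between animals. They rest on the spread between plates pooled almost wholly over all genes, not on that of the member itself. This spread may be technical. Fits were tested on simulated data. Shares have exact Clopper-Pearson intervals at 95% (Python 3.11.15, scipy 1.17.1). Gene positions and coding sequences came from GENCODE (mm10), promoters from RefSeq. The amino acid sequences of the members were not used here. Some genes of the marker and partner lists are not reported here by name.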

Additional observations from a re-analysis of the deposited data

Results flagged for a closer look

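Ctla4 differed in opposite directions between labels in the 2 cell types, at -0.68 in CD8 cells and 0.43 in CD4 cells on the log2 scale (IL27raKO minus wild type), and likewise at -0.69 in Foxp3-positive and 0.12 in Foxp3-negative CD4 cells. Icos differed in opposite directions by Foxp3 class on the 2 CD4 plates, at 0.86 on the IL27raKO and -0.38 on the wild type plate (Foxp3-positive minus Foxp3-negative). None of these differences reached 1 in size, and none of the contrasts between groups was tested, since there is 1 plate for each combination.

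Among the 75 single-cell wells left out for having under 1000 detected genes, 4 had a member at 1 FPKM or more, whereas the wells without a cell had none. Icos was found in 3 of them, Ctla4 in 1 and Cd28 in 1, with a highest value of 1565 FPKM, and the median over the 75 wells was 240 detected genes.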

How the results depend on the processing

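Direction and side of the threshold were kept in 60 of 67 alternative values of CD4 minus CD8 and in 51 of 63 of Foxp3-positive minus Foxp3-negative. These counts include members without a call in the main fit that stayed without one. The call of Icos in the first contrast was lost in 3 values, and that of Ctla4 in the second in 5. In the next values the cause was not tested. For CD4 minus CD8, Icos lost its call with 2000 or more genes per cell (4.23) and without cells carrying other markers (3.23), and ran from 3.03 to 4.31 as each plate was left out; Ctla4 turned to -0.98 in Foxp3-negative CD4 cells and was called in population libraries (2.02) and arithmetic means (1.61), and Cd28 in population libraries (1.45). For the Foxp3 classes, Ctla4 lost its call in arithmetic means (2.53), without cells carrying other markers (5.56; 5.32 with Tyr and Cd8b1 not counted) and ran from 5.60 to 6.29 as each class was left out. Icos was called without the cell filter (2.06), where 1396 of 8052 genes were called higher. Icos turned to -1.53 and -0.00382 in those 2 marker settings and to -0.34 in cells with 1500 to 3000 genes. It ran from -0.74 to 1.23 as each class was left out. Btla turned to 1.26 without cells carrying other markers. With no replicate block, Icos kept its call in CD4 minus CD8 (3.67, limma adjusted p = 0.0128) and Ctla4 its call in the Foxp3 classes (5.94, limma adjusted p = 0.00101), and no other member's call changed.

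For IL27raKO minus wild type, Cd28 in CD8 cells was under 1 in population libraries (0.40) and without cells carrying other markers (0.18), but 1.57 with Tyr and Cd8b1 not counted. Icos in CD8 cells exceeded 1 in population libraries (1.60), with a pseudocount of 0.1 (1.04) and in cells with 1500 to 3000 genes (1.43). Ctla4 in CD8 cells passed -1 with 2000 or more genes (-1.52) and in the 2 marker settings (-2.01 and -1.67), and Btla passed 1 in population libraries (2.95). In CD4 cells, Icos was under 1 in population libraries (0.15), with a pseudocount of 10 (0.98), in arithmetic means (0.80) and in the 2 marker settings (0.40 and 0.75), and Ctla4 passed 1 without cells carrying other markers (2.72), where Btla in Foxp3-positive cells was at -3.19.

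The first marker setting removed 66.2 to 79.7% of the cells of a plate, and the setting without Tyr and Cd8b1 20.8 to 34.7%. The second, like the one with Foxp3-negative cells alone, was chosen after seeing the data. Genes called numbered 627 for CD4 minus CD8, from 11 with 2000 or more genes per cell to 1151 without the IL27raKO CD8 plate, and made up 2.98% of 8278 for the Foxp3 classes, from 0 by limma in arithmetic means (759 at an unadjusted p under 0.05) to 1425 genes without the cell filter, and the share called higher ran from 5.36 to 59.1% and from 57.1 to 100%. At an unadjusted p under 0.05 the counts were 1884 and 1119. Btla had no value with a filter at 25% of cells. Of 160 alternative shares of cells, 16 left the main interval. Depth in reads is not known from these values, and shares of cells with few positive cells, as for Btla, are the least certain.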
